A study of Homo sapiens with 6 samples.

Results

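CCND1 and 8 genes that lie near it on chromosome 11, band q13, were examined in TE-10 cells, a human cell line labelled as esophageal epithelium. The 9 genes are CCND1, FADD, ANO1, CTTN, PPFIA1, SHANK2, FGF3, FGF4 and FGF19, taken by name because the band is often amplified in esophageal squamous carcinoma. All 9 are among the 18249 genes of the expression table. The RNA-seq groups were METTL3 knockdown, with 2 libraries from cells stably carrying short hairpins that the titles number 1 and 2, and control cells with normal METTL3, with 1 library. Methylated RNA was also immunoprecipitated from cells with normal METTL3, giving 2 immunoprecipitated libraries, labelled with different antibody catalogue numbers, and 1 input library, and 20 of the 15940 regions in the resulting list carry the name of a member. The labels do not say whether libraries came from separate cultures, whether the control carried a hairpin, or whether cells were cloned. P-values therefore measure only the spread between these libraries. The copy number of the region was not measured here.

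METTL3 is the enzyme that places N6-methyladenosine (m6A) on nascent mRNA, a mark that reader proteins use to set splicing, translation and decay. Genes of 11q13 are often gained together in squamous tumours of the head, neck and esophagus, and the gain usually spans the cyclin gene CCND1 with FADD, PPFIA1 and CTTN. CCND1 encodes cyclin D1, which binds CDK4 and CDK6 and starts the phosphorylation of the retinoblastoma protein in G1. The neighbours act in other pathways: death receptor signalling, chloride transport, branched actin, adhesion sites, scaffolds and fibroblast growth factor signals.

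METTL3 itself was lower in both knockdown libraries. It had expression values of 8.35 in knockdown 1 and 4.99 in knockdown 2, against 20.81 in the control, where values are the authors' deposited signal per gene. Genes at 1 or more in at least 1 library were tested with limma on log2(value + 1), with both knockdown libraries set against the control, and on that scale the change of low genes is understated. Knockdown 1 was at 40.1% of the control and knockdown 2 at 24.0%, and the log2 change was -1.54 (SE 0.327; limma adjusted p of 1). Over all 12375 genes tested, 0.0% passed an adjusted p of 0.05 in limma. An unadjusted limma p under 0.05 was found for 162 of the 12375, a share below 0.05, so these are not read as changed genes. The residual spread of this fit comes from the difference between the 2 knockdown libraries alone. Knockdown 2 stood apart from the other libraries. Over all genes tested, the SD of the difference from the control in log2(value + 1) was 0.279 in knockdown 1 and 0.491 in knockdown 2. Summed over CDKN2A, HOXB9, IRS4 and VIM, the values were 88.44 in knockdown 1, 532.53 in knockdown 2 and 87.14 in the control. These 4 genes were listed for libraries that stand apart, with earlier results of these data known, so their sum is no separate support. CDKN2A and VIM also count in marker lists below. All 10 squamous markers passed the filter on low values, with sums of 3948.15 in knockdown 1, 2627.34 in knockdown 2 and 4127.28 in the control. The 5 markers of kidney or HeLa type cells summed to 3.53 in knockdown 1, 150.1 in knockdown 2 and 4.18 in the control, and CDKN2A made up 144.68 of the sum in knockdown 2. PAX2 was at 0 in knockdown 1, 0.78 in knockdown 2 and 0.01 in the control, WT1 at 0.02 in knockdown 1, 0.69 in knockdown 2 and 0.02 in the control, and LHX1 at 0 in knockdown 1, 0.29 in knockdown 2 and 0 in the control. These 4 of the 5 markers were thus highest in knockdown 2, and PAX8 was highest in the control. PAX2, WT1 and LHX1 were below the filter of 1 in every library and were not tested. Of 8 mesenchymal markers 3 were tested, with sums over all 8 of 108.78 in knockdown 1, 326.53 in knockdown 2 and 102.92 in the control, of which VIM was 88.05 in knockdown 1, 311.17 in knockdown 2 and 87.02 in the control. Each result below is therefore given for each knockdown library.

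CCND1 was lower in knockdown 2 and close to the control in knockdown 1. It had values of 230.8 in knockdown 1 and 168.74 in knockdown 2, against 245.47 in the control. Knockdown 1 was thus at 94.0% of the control and knockdown 2 at 68.7%. The mean over both knockdown libraries was 199.77 ± 43.88 (SD, n = 2), and the control value lay above both. The log2 change was -0.31 (SE 0.302, 95% interval -1.05 to 0.43) with a limma adjusted p of 1. The interval includes 0, and its lower end lies past a 2-fold loss.

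Of all genes tested, 52.1% were lower than the control in knockdown 1 and 49.7% in knockdown 2. Counts of lower genes in this and the later lists stand beside those shares. Counts past limma's threshold stand beside 0.0% of all genes tested, so a count of 0 sets no list apart. The partners of cyclin D1 showed no common direction. Of 19 genes of this list, all tested, 0 passed limma's threshold, 8 were lower than the control in knockdown 1 and 8 in knockdown 2. Their median difference from the control on the log2(value + 1) scale was 0.01 in knockdown 1, where that of all genes tested was -0.01, and 0.05 in knockdown 2, where it was 0.00055. CDK4, the kinase that cyclin D1 activates, had values of 197.53 in knockdown 1 and 156.0 in knockdown 2, against 146.17 in the control. The repressor E2F4 was at 125.09 in knockdown 1 and 87.7 in knockdown 2, against 101.48 in the control, and the CDK inhibitor CDKN1A at 54.7 in knockdown 1 and 54.17 in knockdown 2, against 67.77 in the control. CDKN2A, which encodes the CDK4 and CDK6 inhibitor p16, was at 0 in knockdown 1 and 144.68 in knockdown 2, against 0.04 in the control. Chosen after its values were seen, CCND2, the related cyclin D2, was at 0.02 in knockdown 1 and 3.75 in knockdown 2, against 0.01 in the control. The library with the lowest CCND1 was thus the one with CDKN2A and CCND2, and their part in the CCND1 value was not tested. Of 10 genes for the turnover of cyclin D1, 0 passed, 5 were lower in knockdown 1 and 7 in knockdown 2, with median differences of -0.01 in knockdown 1 and -0.13 in knockdown 2. The deubiquitinase USP22 was at 72.74 in knockdown 1 and 75.75 in knockdown 2, against 80.91 in the control, and DDB1, an adaptor of cullin ligases, at 43.94 in knockdown 1 and 45.43 in knockdown 2, against 43.14 in the control.

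FADD, the adaptor that joins death receptors to caspase-8, was lower in knockdown 2 and level with the control in knockdown 1. Its values were 87.31 in knockdown 1 and 64.36 in knockdown 2, against 85.76 in the control. The control lay between the knockdown libraries. The log2 change was -0.19 (SE 0.29, 95% interval -0.90 to 0.52), limma adjusted p of 1. Of its 12 partners 11 were tested, 0 passed, and 6 were lower in each knockdown library, with a median of -0.18 in knockdown 1 and of -0.105 in knockdown 2. The receptor TNFRSF1A was at 82.93 in knockdown 1 and 69.94 in knockdown 2, against 82.49 in the control, and CFLAR, which blocks caspase-8 at the receptor, at 79.85 in knockdown 1 and 62.58 in knockdown 2, against 75.98 in the control.

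CTTN encodes cortactin, which binds the Arp2/3 complex and steadies branched actin at the cell edge and in invadopodia. It had values of 141.47 in knockdown 1 and 80.79 in knockdown 2, against 136.56 in the control. Knockdown 2 was at 59.2% of the control, while knockdown 1 and the control were nearly level. The log2 change was -0.35 (SE 0.378, 95% interval -1.28 to 0.58), limma adjusted p of 1. Of 15 partners in branched actin, 0 passed, 5 were lower in knockdown 1 and 13 in knockdown 2. The shares of all genes tested were 52.1% in knockdown 1 and 49.7% in knockdown 2. Median differences of the partners were 0.04 in knockdown 1 and -0.12 in knockdown 2. The Arp2/3 subunit ARPC3 was at 339.19 in knockdown 1 and 316.39 in knockdown 2, against 337.15 in the control, and ARPC2 at 357.88 in knockdown 1 and 283.21 in knockdown 2, against 326.84 in the control. Their differences in knockdown 2 were -0.09 and -0.21, smaller in size than that of CTTN at -0.75.

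PPFIA1 encodes liprin-alpha-1, a scaffold that binds LAR-type receptor phosphatases near adhesion sites. It had values of 38.52 in knockdown 1 and 25.59 in knockdown 2, against 33.51 in the control. The control again lay between the knockdown libraries, and the log2 change was -0.09 (SE 0.313, 95% interval -0.86 to 0.68; limma adjusted p of 1). Of its 11 relatives and partners 8 were tested, 0 passed, 6 were lower in knockdown 1 and 7 in knockdown 2. The shares of all genes tested were 52.1% in knockdown 1 and 49.7% in knockdown 2. Median differences of the 8 were -0.16 in knockdown 1 and -0.155 in knockdown 2. The receptor phosphatase PTPRF, which liprins bind, was at 25.58 in knockdown 1 and 31.79 in knockdown 2, against 38.0 in the control, and its relative PTPRS at 20.43 in knockdown 1 and 23.58 in knockdown 2, against 23.82 in the control.

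ANO1, a calcium-activated chloride channel, showed the widest gap between the knockdown libraries among the members. Its values were 6.01 in knockdown 1 and 1.32 in knockdown 2, against 4.58 in the control. Knockdown 1 was at 131% of the control and knockdown 2 at 28.8%. The log2 change over both was -0.47 (SE 0.634, 95% interval -2.03 to 1.09; limma adjusted p of 1), the mean of a difference of 0.33 in knockdown 1 and of -1.27 in knockdown 2 on the log2(value + 1) scale. Of 9 other anoctamins 4 were tested, 0 passed, 2 were lower in knockdown 1 and 1 in knockdown 2, with median differences of -0.03 in knockdown 1 and 0.08 in knockdown 2. The lipid scramblase ANO6 was at 11.27 in knockdown 1 and 8.23 in knockdown 2, against 11.08 in the control, and ANO10 at 7.64 in knockdown 1 and 10.43 in knockdown 2, against 6.92 in the control.

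SHANK2, a scaffold known from synapses and also found in epithelia, had values close to the filter of 1. Its values were 1.06 in knockdown 1 and 0.63 in knockdown 2, against 1.46 in the control, so it passed that filter through the control and knockdown 1. The control was highest here, as for CCND1, with knockdown 1 at 72.6% of it and knockdown 2 at 43.2%. The log2 change was -0.42 (SE 0.459, 95% interval -1.55 to 0.70; limma adjusted p of 1), and -0.76 with a pseudocount of 0.1. Of 9 scaffold partners 7 were tested, 0 passed, 3 were lower in knockdown 1 and 7 in knockdown 2. The shares of all genes tested were 52.1% in knockdown 1 and 49.7% in knockdown 2. Median differences of the 7 were 0.11 in knockdown 1 and -0.29 in knockdown 2. The ubiquitin ligase subunit SHARPIN was at 123.01 in knockdown 1 and 87.95 in knockdown 2, against 95.25 in the control, and HOMER2, which links Shank proteins to receptors, at 59.87 in knockdown 1 and 43.89 in knockdown 2, against 53.82 in the control.

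The 3 growth factor genes of the band were at or near 0 and were not tested. FGF3 and FGF4 were listed at 0 in all 3 libraries. FGF19 was at 0.02 in knockdown 1 and 0.04 in knockdown 2, against 0.07 in the control. FGF19 is an endocrine ligand that acts mainly through FGFR4 with the coreceptor KLB. FGFR4 was at 5.39 in knockdown 1 and 8.6 in knockdown 2, against 8.18 in the control, and KLB at 0.1 in knockdown 1 and 0.11 in knockdown 2, against 0.1 in the control; both were chosen after their values were seen.

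Of 14 receptors and feedback genes of this pathway 12 were tested, and 0 passed limma's threshold. Lower than the control were 4 in knockdown 1 and 6 in knockdown 2, with the other 6 higher in knockdown 2, which is close to the 49.7% of all genes tested that were lower there. The list had median differences of 0.07 in knockdown 1 and -0.18 in knockdown 2. The transcription factor ETV4, a target of receptor signals through ERK, was at 31.7 in knockdown 1 and 11.76 in knockdown 2, against 35.58 in the control. Its relative ETV5 was at 16.74 in knockdown 1 and 6.45 in knockdown 2, against 19.5 in the control, and the feedback inhibitor SPRY2 at 16.82 in knockdown 1 and 9.32 in knockdown 2, against 15.66 in the control. Chosen after its values were seen, the ERK phosphatase DUSP6 was at 10.27 in knockdown 1 and 2.77 in knockdown 2, against 9.97 in the control. These 4 genes were all lowest in knockdown 2, while the receptor FGFR2 was at 17.89 in knockdown 1 and 19.29 in knockdown 2, against 16.58 in the control. None of the 3 growth factor genes of the band was above 0.07 in any library.

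**Figure D1:**
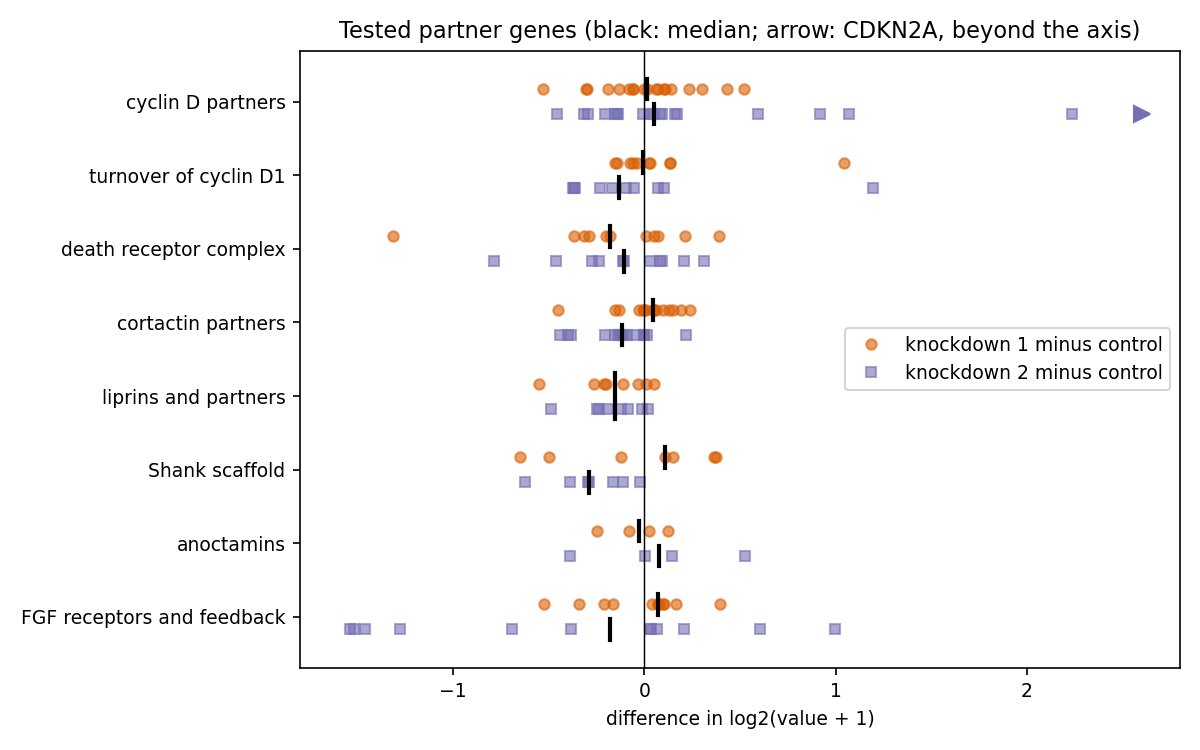
Difference in log2(value + 1) from the control for each tested partner gene, with knockdown 1 as circles above knockdown 2 as squares; black bars are medians over the list. Medians lie between -0.29 and 0.11, and single genes reach further in knockdown 2, among them ETV4, ETV5 and DUSP6 on the left.

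Seen together, the 6 members tested were not called in limma, with 0 past the threshold, where 0.0% of all genes tested passed. An unadjusted limma p under 0.05 was found for 0 of the 6, and for 162 of all 12375 genes tested. These counts of 0 therefore do not set the members apart from other genes. In knockdown 1, 2 of the 6 were lower than the control, where 52.1% of all genes tested were lower, and 0 were 1.5-fold higher or lower, where 4.29% of all genes were. In knockdown 2 all 6 were lower than the control, where 49.7% of all genes tested were. On the log2(value + 1) scale, at least 1.5-fold lower there were 3 members, ANO1, CTTN and SHANK2, where 4.86% of all genes were, with CCND1, at -0.54, just outside that threshold and SHANK2, at -0.59, just inside it. On the same scale ANO1 alone was at least 2-fold lower, where 0.978% were, while by the values themselves SHANK2, at 43.2% of the control, was also past 2-fold. Knockdown 2 was the lowest of the 3 libraries for all 6 members, where it was the lowest for 36.8% of genes. The median difference of the 6 was 0.04 in knockdown 1 and -0.57 in knockdown 2, a description over members that passed the filter. Both comparisons use the same control library, and each rests on 1 library against 1, so these counts carry no test. Without knockdown 2, the differences left are those of knockdown 1, which were above 0 for FADD at 0.03, ANO1 at 0.33, CTTN at 0.05 and PPFIA1 at 0.20, and below 0 for CCND1 at -0.09 and SHANK2 at -0.26. The count of 6 lower in knockdown 2 was the same under each scaling tried. In knockdown 1 the count lower than the control was 3 with quantile normalization, where the difference of FADD turned to -0.03. Beside this, all 10 squamous markers were also lower in knockdown 2 (median -0.60) and 7 of 10 in knockdown 1 (median -0.17). Of 6 markers of simple or glandular epithelium 4 were tested. In knockdown 2, 1 of them was lower and 3 were higher (median 0.11), and in knockdown 1, 2 were lower (median 0.004). The 3 were unlike in size, as seen after their values were known. KRT8 was nearly level, at 456.63 in knockdown 2 against 450.52 in the control, and KRT19 was at 586.46 against 509.45. CDX2 was at 0 in knockdown 1 and 6.01 in knockdown 2, against 0.07 in the control. The lower gene, KRT18, was at 229.96 in knockdown 2 against 281.8 in the control. The part of the markers in the members' values was not tested. In bulk RNA, fewer cells of a kind and less RNA per cell cannot be told apart.

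**Figure D2:**
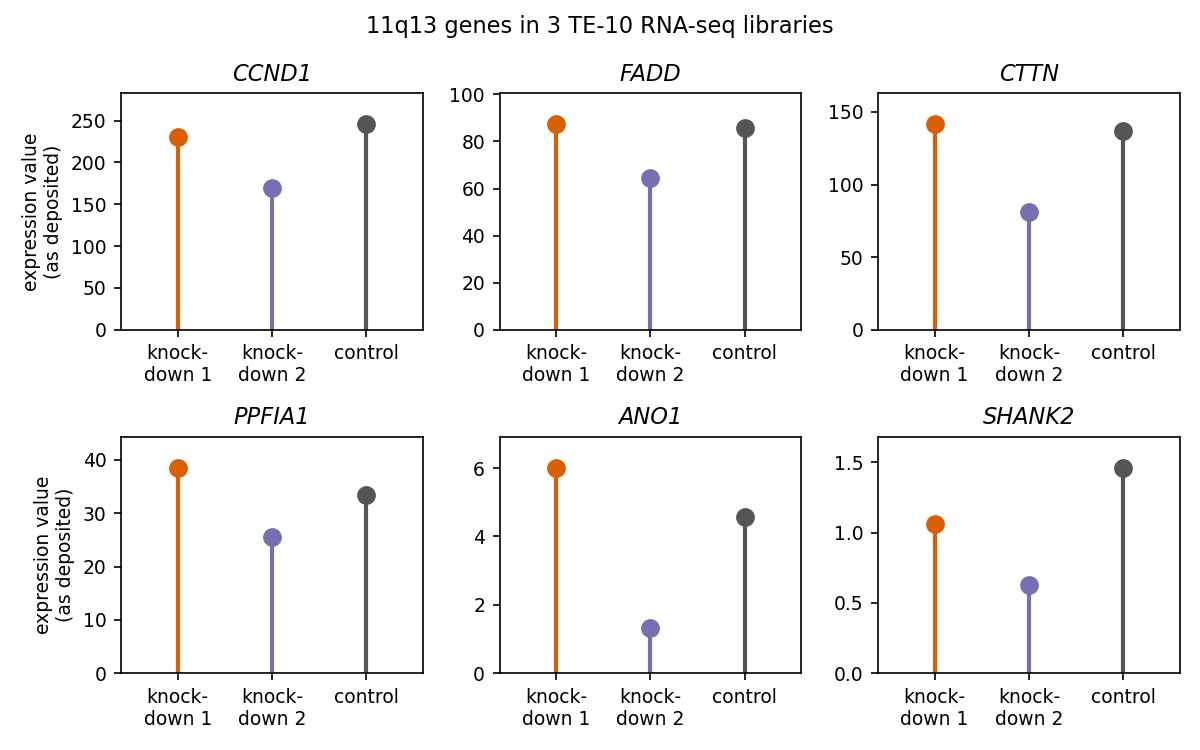
Deposited expression value of the 6 tested members in knockdown 1, knockdown 2 and the control, 1 library per point, with each axis starting at 0. Knockdown 2 is lowest in every panel, for CCND1 at 168.74 in knockdown 2, against 245.47 in the control.

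Lower values in knockdown 2 were also seen beyond the members, more on the centromeric side than on the telomeric side, which was not tested. Between the members lies LTO1, which helps to mature iron-sulfur proteins, and it was at 32.38 in knockdown 1 and 20.18 in knockdown 2, against 23.87 in the control. From CCND1 to SHANK2, all 7 tested genes were lower in knockdown 2, where 49.7% of all genes tested were. The 7 had differences from -1.27 to -0.23 and a median of -0.54. On the centromeric side, from LRP5 to MYEOV, 8 of 9 tested genes were lower in knockdown 2, with a median of -0.35. On the telomeric side, from DHCR7 to CLPB, 6 of 11 were lower, with a median of -0.05. In knockdown 1 the median was 0.05 from CCND1 to SHANK2, -0.08 on the centromeric side and 0.05 on the telomeric side.

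Among the flanking genes, the highest values differed in direction. On the centromeric side, the mitochondrial ribosome gene MRPL21 was at 147.58 in knockdown 1 and 106.96 in knockdown 2, against 119.74 in the control, and the helicase gene IGHMBP2 at 42.08 in knockdown 1 and 28.04 in knockdown 2, against 41.92 in the control. The neuropeptide gene GAL was higher in both, at 52.85 in knockdown 1 and 34.34 in knockdown 2, against 19.59 in the control, and was the exception in knockdown 2. MYEOV, the gene next to CCND1 on that side, was at 8.41 in knockdown 1 and 15.09 in knockdown 2, against 21.25 in the control; it was chosen after its values were seen. On the telomeric side, DHCR7, the last enzyme of cholesterol synthesis, was at 89.77 in knockdown 1 and 78.6 in knockdown 2, against 102.45 in the control, and LAMTOR1, an anchor of mTORC1 on lysosomes, at 84.48 in knockdown 1 and 95.2 in knockdown 2, against 77.04 in the control. In limma 0 of the 9 tested genes of each flank list passed the threshold.

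**Figure D3:**
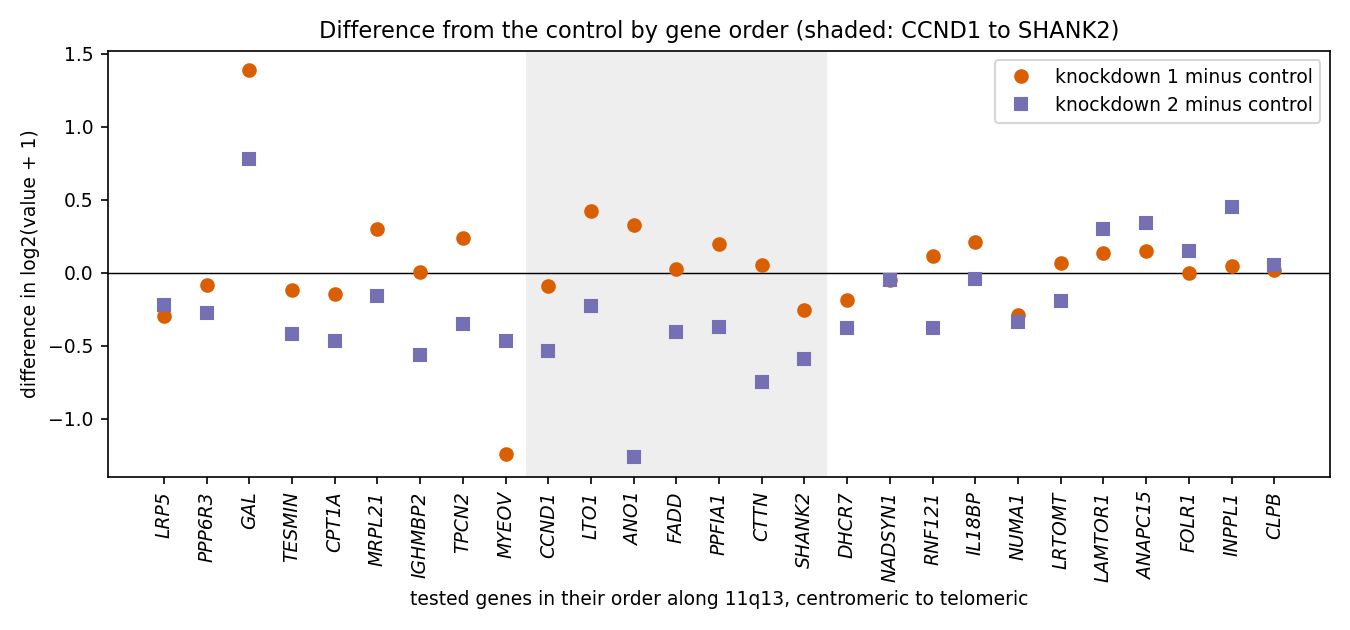
Difference in log2(value + 1) from the control for each tested gene from LRP5 to CLPB, in their order along the chromosome, with knockdown 1 as circles and knockdown 2 as squares; 1 library each. In the shaded stretch from CCND1 to SHANK2 every square lies below 0, between -1.27 and -0.23, while the telomeric side falls on both sides of 0.

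Among genes of similar value, those nearest to CCND1 in their differences from the control were DDIT4, DRAP1 and EPCAM, out of 626 genes with a mean value within 2-fold of that of CCND1. The stress-induced mTORC1 inhibitor DDIT4 was at 181.71 in knockdown 1 and 132.46 in knockdown 2, against 196.04 in the control. DRAP1, a repressor of transcription, was at 213.6 in knockdown 1 and 161.93 in knockdown 2, against 228.76 in the control, and EPCAM, an epithelial adhesion protein, at 161.77 in knockdown 1 and 121.52 in knockdown 2, against 179.08 in the control. Their distances from CCND1 were 0.0315, 0.0434 and 0.0599 on the log2(value + 1) scale. With 3 libraries, such likeness describes these libraries only.

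The m6A list names 5 of the 9 members, with 20 regions. Regions in exons or untranslated regions (UTRs) were listed for 4 members, CCND1, FADD, ANO1 and SHANK2. All 4 are among the 6 tested genes, where 46.0% of all genes tested had such a region. Counting every class adds PPFIA1, and 5 of the 6 tested members then had a region, where 56.6% of all genes tested did. No region carries the name CTTN, FGF3, FGF4 or FGF19. The list gives no strength, so a region is only present or not. Coordinates are given as listed. The submitters' processing notes name GRCh38 (hg38). The transcript starts implied by the list for these 5 genes differ from the outermost gene starts of that build by 41590 to 317392 bases. This range can mix a difference of build with the choice of transcript for each gene. FADD, at 154028 bases, and PPFIA1, at 153885, differ by nearly the same amount. The positions are therefore not taken to be of GRCh38.

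CCND1 had a single region, in its 5' UTR. It lay at chr11:69455873-69456127 on the plus strand, 255 bases long and centred 128 bases after the transcript start. No region was listed in its coding exons or 3' UTR. In the whole list 838 of 8906 genes (9.41%) had regions of the 5' UTR class alone. Of all 1842 regions in 5' UTRs, 62.2% were centred within 250 bases of the start, as this one was.

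FADD had regions at both ends of its transcript. The first lay at chr11:70049327-70049620, centred 205 bases after the start in the 5' UTR, and the second at chr11:70052251-70053228, centred 3471 bases after the start in the 3' UTR. The second was 978 bases long, beside a median of 350 for all regions in 3' UTRs, and 4.76% of those were as long or longer. Regions in both UTRs were listed for 297 genes (3.33%).

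PPFIA1 had 2 regions, both upstream of the start of the transcript that the list names. They lay at chr11:70115385-70115746 and chr11:70116204-70116610, centred at -1240 and -398 bases from the start. Upstream regions made up 7.84% of the list, with a median position of -678 bases from the start. The class depends on which transcript the list names.

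The promoters of FADD and PPFIA1 are shown because they have listed regions near the start. Counted from the list's own starts, these are centred at 205 bases for FADD and at -398 and -1240 for PPFIA1. Those centres fall outside the stretches printed. RefSeq's starts may differ from the list's, so the stretches are not taken to show the regions. Each is printed from 250 bases before to 30 bases after the RefSeq start, from build GRCh38.p14, on the plus strand, at chr11:70203046-70203325 for FADD and chr11:70270440-70270719 for PPFIA1. Capitals mark GC boxes, the letters GGGCGG or CCGCCC, which are the same motif on either strand and which the factor SP1 can bind.
FADD: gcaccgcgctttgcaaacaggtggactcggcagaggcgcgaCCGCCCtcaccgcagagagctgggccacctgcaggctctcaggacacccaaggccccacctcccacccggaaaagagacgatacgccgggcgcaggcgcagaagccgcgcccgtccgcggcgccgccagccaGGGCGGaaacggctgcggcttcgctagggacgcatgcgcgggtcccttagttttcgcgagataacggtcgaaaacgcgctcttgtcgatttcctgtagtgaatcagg
PPFIA1: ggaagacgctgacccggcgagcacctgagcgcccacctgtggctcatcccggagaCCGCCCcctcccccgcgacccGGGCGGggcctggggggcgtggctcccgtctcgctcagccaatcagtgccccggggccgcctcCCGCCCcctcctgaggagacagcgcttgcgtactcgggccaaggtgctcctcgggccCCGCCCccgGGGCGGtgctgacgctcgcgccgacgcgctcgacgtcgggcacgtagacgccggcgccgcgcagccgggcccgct

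FADD had 2 GC boxes and PPFIA1 had 5 in RefSeq's full window, which runs to 50 bases after the start. Among 35116 promoters of that length in the RefSeq table, 45.0% held at least 1. ANO1 and FGF3, the other members in the table, held 4 each. The letters TATAAA, sought on the gene's strand, are in 7.33% of all promoters. TGACTCA, sought on both strands, is in 4.95%, and CACGTG, the same on both, in 7.26%. None of these 3 motifs was in any of the 4 windows. CpG pairs numbered 36 for FADD, 42 for PPFIA1, 36 for ANO1 and 26 for FGF3, beside a median of 14. FGF3, listed at 0 in all libraries, thus shares these features with FADD, PPFIA1 and ANO1, which had values above 1. No window was found for CCND1, CTTN and SHANK2. The listed m6A regions could not be read as sequence, since no genome of their build was used here.

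ANO1 had 3 regions, of which 1 lay in a coding exon. It was at chr11:70033723-70034006, centred 109457 bases after the start. The other 2 were in introns, 57617 and 58163 bases after the start.

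SHANK2 had 12 regions, more than the other 4 named members together. Of these, 3 were in coding exons and 9 in introns, and all refer to 1 listed transcript on the minus strand. Only 6 of 8906 genes (0.0674%) had 12 or more regions, the others being NPIPL1, FAT1, AHNAK2, AHNAK and LOC541471, while the median gene had 1. Among 1793 tested genes with a mean value from 0.5 to 2, a window chosen after the value of SHANK2 was seen, SHANK2 was the only gene with 12 or more. Of those genes 48.4% had at least 1 region. These counts are of all classes and were not set against gene length. The farthest region of SHANK2 was centred 616765 bases from the start.

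The regions of SHANK2 fell into 2 groups. At the far end of the gene, 5 regions lay within 13.4 kb, centred 603723 to 616765 bases from the start, and held all 3 of the coding exon class. The longest of these was chr11:70331098-70331891, at 794 bases. Near the start, 7 regions lay 23332 to 96308 bases from it, all in introns, with the longest at chr11:70881737-70883077, 1341 bases. The 507 kb between the groups held no listed region. Counting regions less than 100 bases apart as 1 left 11. Introns held 55.0% of the members' regions against 23.5% of the whole list, and 2 of 8 without SHANK2. AHNAK, known for a coding sequence that lies almost wholly in a single large exon, had 11 of its 12 regions in the intron class, and each class rests on 1 listed transcript per gene.

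**Figure D4:**
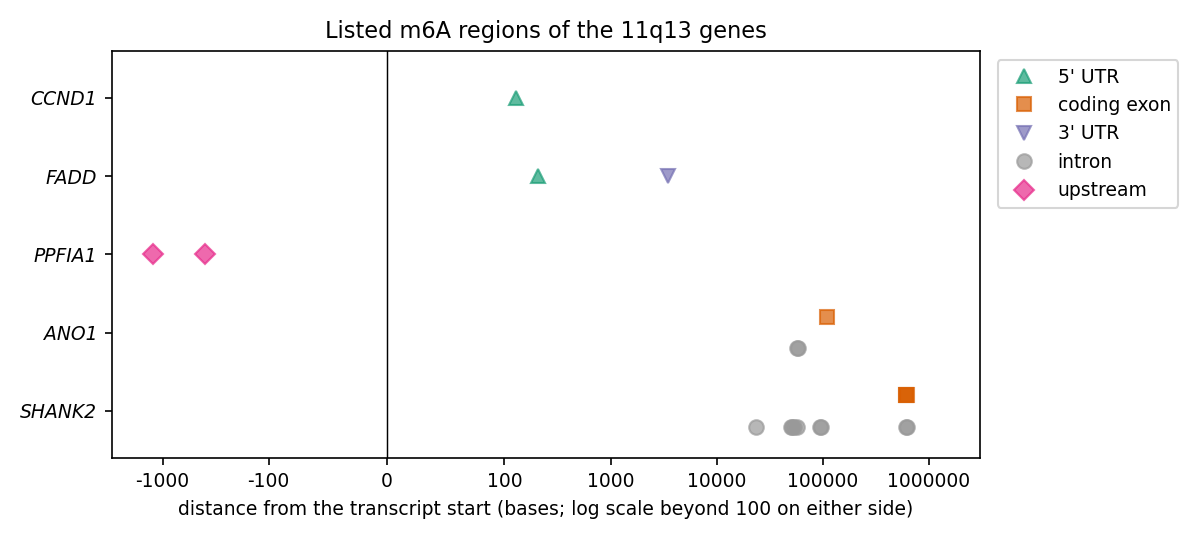
Listed m6A regions of the 5 members that have any, by the distance of the region's centre from the transcript start, with negative values upstream; the axis is logarithmic beyond 100 bases. CCND1 and FADD have a 5' UTR region 128 and 205 bases after the start, and the regions of SHANK2 lie in 2 groups far from it.

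CTTN, in contrast, had no listed region at values of 141.47 in knockdown 1, 80.79 in knockdown 2 and 136.56 in the control. This is common at such values: of 899 genes with a mean of at least 100, 585 (65.1%) had none of any class. In the order of the list, the regions between those of PPFIA1 and SHANK2 were 2 in introns of a transcript that the list names by an accession, at chr11:70229685-70229908 and chr11:70231221-70231492. Regions are counted here by the gene that the list names, and whether these 2 overlap exons of a member was not examined. LTO1, listed under its older symbol ORAOV1, had 1 region, in an intron. In all, the stretch of 1457 kb from the first region of CCND1 to the last of SHANK2 held 23 regions, 14 of them intronic.

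Members with and without a listed region overlapped in their differences from the control. CTTN, with no region, and SHANK2, with 12, were both at least 1.5-fold lower in knockdown 2, and FADD, with 2, was at 75.0% of the control there. In knockdown 1, PPFIA1, with no exon or UTR region under its name, was at 115% of the control, and ANO1 with one was at 131%. With 6 genes tested, no test of this relation was made.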

How the data were processed

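The deposited expression table holds 1 normalized signal per gene and library, with 2 decimals and no stated unit. Alignment with TopHat2, counting with HTSeq and peak calling with MACS2 are named per the submitters' processing notes. The same notes name hg38. The sources used here give no versions or settings for these tools, and sequencing depth is unknown. Column sums were 617840.4 in knockdown 1, 627152.0 in knockdown 2 and 608291.0 in the control. The deposited peak list gives position, gene, class and distance to the transcript start, with no strength. It does not say if peaks were called on each immunoprecipitation or on both pooled.

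Here values were taken as log2(value + 1). Genes at 1 or more in at least 1 library were tested with limma 3.58.1 in R 4.3.3, with a mean-variance trend and Benjamini-Hochberg adjustment over all of them at 0.05. The control has no replicate, so residual variance rests on the difference between the knockdown libraries (1 residual degree of freedom). The procedure was also run on simulated data, with the same spread in each library and equal changes in both knockdown libraries. The real knockdown libraries differ in spread, so that run does not show what could be detected for the members. Values of single libraries carry no test. Older symbols were matched through RefSeq synonyms. Alternatives were the pseudocount, filter, scaling, trend, each knockdown library left out, and the peak classes. The text names all 9 members, METTL3, the 2 to 4 highest genes by mean value of each list of neighbours and partners, and the 3 genes most like CCND1. Past the first 2 of a list, how many were named was decided with their values seen, which holds for CDKN1A, CDKN2A, ETV5, SPRY2 and GAL. Other genes are marked as chosen after their values were seen. Members and lists were chosen with earlier results of these data known. Tables were joined in Python 3.11.15 with pandas 2.3.3 and numpy 2.4.6, and plots drawn with matplotlib 3.10.9. Promoter windows are RefSeq's (GRCh38.p14) and were found for 4 of the 9 members.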

Additional observations from a re-analysis of the deposited data

How the results depend on the processing

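No gene of the whole table passed limma's threshold under any of the 7 other fits, so no member could have stood out there. All 40 log2 changes of members in them kept their direction, with the adjusted p at 1 in each. These fits use the same libraries, so the kept directions are no separate support. The median over the members tested ran from -0.36 with equal column sums to -0.19 without the filter on low values, where all 9 members count. A mean of at least 5 left 4 members. SHANK2 stood at -0.76 with a pseudocount of 0.1, beside -0.42 with 1. Leaving out each knockdown library in turn leaves no residual degrees of freedom, so these are values with no test. They ran from -0.41 to 0.03 for FADD, from -1.27 to 0.33 for ANO1, from -0.75 to 0.05 for CTTN and from -0.38 to 0.20 for PPFIA1, with the higher end in each from knockdown 1 alone. The directions of these 4 genes over both libraries therefore rest on knockdown 2. CCND1 ran from -0.54 to -0.09 and SHANK2 from -0.59 to -0.26. Counting every peak class gave 5 members with a region in place of 4, and 3 regions for ANO1, 2 for PPFIA1 and 12 for SHANK2 in place of 1, 0 and 3. Older symbols added no member. A stricter peak threshold was not tried, since the list has no score. No paired analysis was possible because there is a single control library. Depth is unknown, so FGF3, FGF4 and FGF19 can only be said to be listed at or near 0.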
